A study of Mus musculus with 4 samples.

Results

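The genes described here are 30 members of the machinery that loads peptides onto major histocompatibility complex (MHC) molecules, 23 of class I and 7 of class II, taken by gene name from the 24473 genes with an FPKM value (fragments scaled to the length of the gene model and to the library total). All 30 names were found, each with 1 row. Messenger RNA of BV-2, a mouse microglial cell line grown continuously in culture, was sequenced after 24 h with 100 ng/mL of lipopolysaccharide (LPS), a bacterial cell wall component. The control group held 2 libraries, whose genotype label is WT and whose titles are sh c1 and sh c2, and the SIX2 knockdown group held 2, titled sh s1 and sh s2. Both groups carry sh in their titles and both received LPS, so there was no library without LPS, and nothing here measures induction by it. BV-2 is 1 cell line in culture, and the labels do not say how the replicates of a group were grown, so the p-values rest on a spread among libraries that could be technical only. The homeobox gene Six2 itself had 0 counts in all 4 libraries, so the knockdown could not be checked on its own transcript.

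MHC class I molecules show peptides from the cell's own proteins to CD8 T cells. Each is a heavy chain paired with beta-2 microglobulin, filled in the endoplasmic reticulum with peptides that the proteasome cuts and the TAP transporter carries across the membrane. MHC class II molecules show peptides from engulfed material to CD4 T cells: an alpha and a beta chain travel with the invariant chain (Cd74) to an acidic compartment, where H2-DM exchanges the invariant chain fragment for a peptide. NLRC5 switches on class I genes and CIITA, its relative, switches on class II genes; resting microglia are known for little class II, which interferon gamma raises.

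The 4 libraries held 60956299 to 75672836 counts. Among low counts, multiples of 4 were frequent without being the majority (42.1% to 47.2% by library), and the detection limit assumes 4 counts for each fragment, which the sources used here do not state. Of 12 microglia and macrophage markers, 11 had more than 12 counts in every library, and P2ry12 did not. Their summed level was 1972 and 2017 CPM (counts scaled to the TMM-adjusted library total) in control and 1833 and 1767 CPM in knockdown libraries. All 4 T cell markers were at 0, as were 3 of 8 dendritic cell markers (Clec9a, Cd209a and Ccr7). The dendritic cell list summed to 7.70 and 8.38 CPM in control and 8.84 and 6.18 CPM in knockdown libraries. The B cell list summed to 7.92 and 7.12 CPM in control and 3.52 and 4.66 CPM in knockdown libraries, and Cd79b was its only marker above 12 counts in every library. The oligodendrocyte list summed to 14.6, 13.9, 7.97 and 0.316 CPM (control 1, control 2, knockdown 1 and knockdown 2), the neuron list to 5.59, 5.43, 3.08 and 0, and the astrocyte list to 1.61, 1.92, 0.743 and 0.458 CPM, each lower in both knockdown libraries, as the class II sums below are. The microglia and macrophage list and the B cell list were also lower in both knockdown libraries, while the dendritic cell list overlapped between groups. The part of any of these lists in the class II values was not tested. In bulk libraries fewer cells that make a transcript and less of it per cell cannot be told apart.

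Class I members spanned a wide range of levels, from B2m, Calr, Pdia3 and H2-D1 at the top to H2-Q6 and H2-Q7 below 1 FPKM. The class II surface chains were at or near 0 in all 4 libraries, as the plot of FPKM by library shows. Of the class I heavy chains, the chains that hold the peptide, H2-D1 had the highest level per length, at 173, 174, 180 and 172 FPKM (control 1, control 2, knockdown 1 and knockdown 2, the order used throughout). H2-K1, the other classical heavy chain, had 49.5, 48.7, 66.9 and 56.1 FPKM. H2-D1 made up 69.6% ± 0.0880 of the summed heavy chain FPKM in control libraries and 66.6% ± 1.298 in knockdown libraries (SD, n = 2 each), and H2-K1 19.7% ± 0.405 and 23.2% ± 1.73. The H2-K1 share was 19.97%, 19.4%, 24.5% and 22% by library, higher in both knockdown libraries than in either control library.

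**Figure D1:**
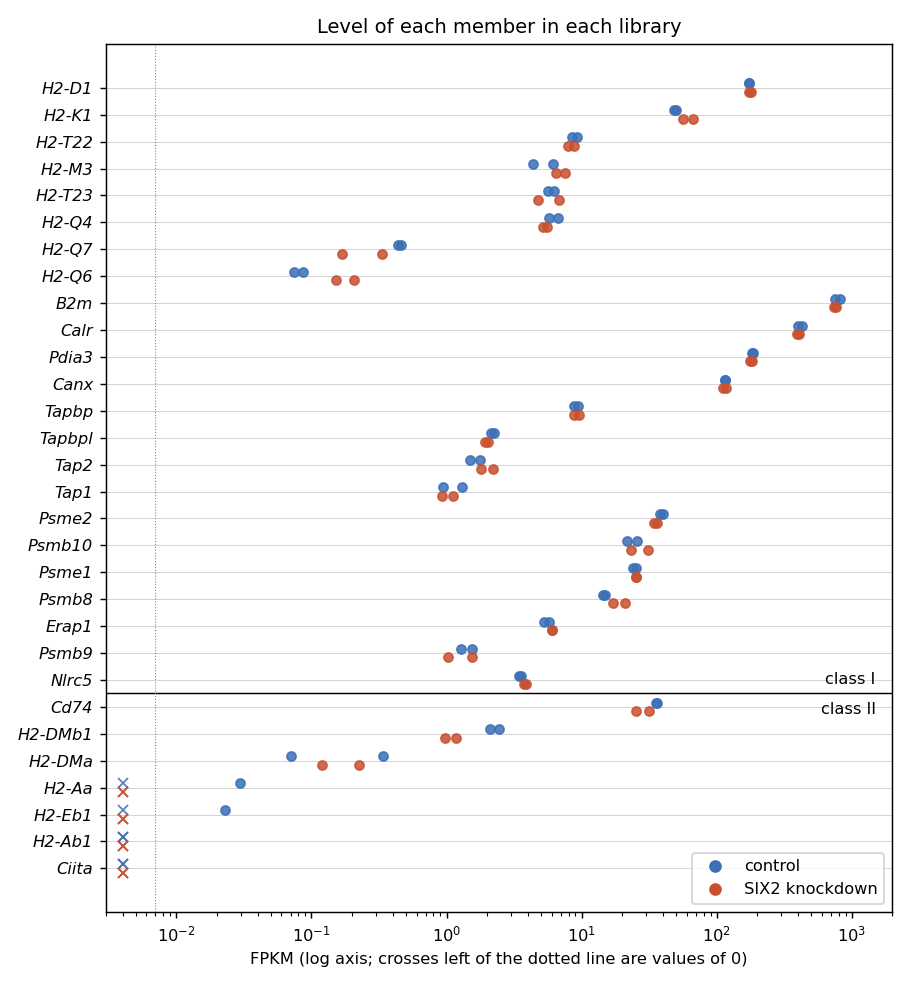
FPKM of all 30 members on a log axis, 1 point for each library, with control in blue and SIX2 knockdown in red and values of 0 drawn as crosses at the left. B2m lies furthest right at 733 to 819 FPKM, while Ciita and H2-Ab1 are at 0 in every library.

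The non-classical heavy chains lay far below these. H2-T22 had 7.97 to 9.22 FPKM over the 4 libraries, H2-M3, which presents formylated bacterial peptides, 4.39 to 7.48, H2-T23, the mouse Qa-1 chain, 4.72 to 6.76, and H2-Q4 5.18 to 6.73 FPKM. H2-Q7 had 0.457, 0.440, 0.167 and 0.332 FPKM. H2-Q6 had only 16, 11, 27 and 31 counts, close to the 12 counts (3 fragments under that assumption) that a count of 0 would allow. Heavy chain genes resemble one another, so reads of 1 can be counted for another. Of all 150-base windows (the read length) in their annotated transcripts, none of those of H2-K1 or H2-M3 occurred in a transcript of another gene. The share was 1.35% for H2-D1, 5.99% for H2-Q6, 5.90% for H2-Q7 and 22.3% for H2-T22. The values of H2-Q6 and H2-Q7 are uncertain for that reason. Only exact matches were counted. The lack of shared windows in H2-K1 and H2-M3 thus does not exclude reads swapped between similar stretches. For H2-T22 nearly all of the share, 21.9% of its windows, was with A930015D03Rik, a gene that overlaps it on the opposite strand, and for H2-Q4 the 9.87% shared was with Gm11131, which overlaps it likewise.

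B2m, the light chain of every class I molecule, stood at 747, 819, 733 and 766 FPKM, the 57th highest mean level of all genes with FPKM. Its level per length exceeded the 8 heavy chains together: the summed heavy chain FPKM was 248, 251, 274 and 255, and the ratio of that sum to B2m was 0.332, 0.306, 0.374 and 0.333. Both knockdown ratios lay above both control ratios, but knockdown 2 and control 1 were nearly equal. The chaperones of the loading complex, which also fold other glycoproteins, were abundant too. Calreticulin (Calr) had 393 to 426 FPKM, the disulfide isomerase Pdia3 176 to 185 and calnexin (Canx) 111 to 117 FPKM. The dedicated loading factors were lower: tapasin (Tapbp), which bridges the heavy chain to TAP, had 8.71 to 9.50 FPKM and its relative Tapbpl, a peptide editor, 1.93 to 2.23 FPKM. The transporter subunits Tap1 and Tap2 had 0.922 to 1.31 and 1.503 to 2.22 FPKM.

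Peptide supply was measured through the immunoproteasome, the form of the proteasome whose 3 catalytic subunits replace the constitutive ones under interferon. Psmb10 had 25.9, 21.5, 30.9 and 23.1 FPKM, Psmb8 15.0, 14.4, 21.0 and 17.2, and Psmb9 1.28, 1.53, 1.56 and 1.02 FPKM. Each was set against the constitutive subunit that it replaces, a pairing chosen after the values were seen. Psmb5, the counterpart of Psmb8, had 344, 317, 368 and 342 FPKM, Psmb6, that of Psmb9, 189 to 206, and Psmb7, that of Psmb10, 121 to 139 FPKM. The inducible subunit was thus the minority in every pair and library, at 4.18%, 4.35%, 5.39% and 4.79% for Psmb8, 0.675%, 0.738%, 0.809% and 0.528% for Psmb9, and 17.6%, 14.1%, 20.2% and 14.3% for Psmb10. The shares are of transcript level per length, not of protein. The Psmb8 share was higher in both knockdown libraries, while the shares of Psmb9 and Psmb10 overlapped between groups.

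**Figure D2:**
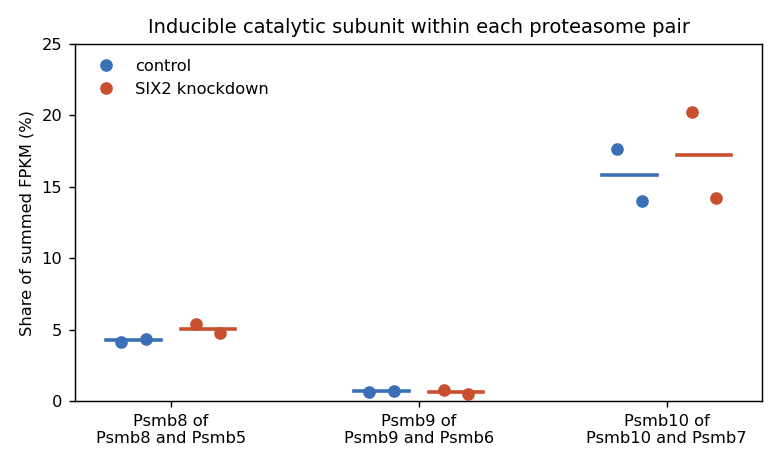
Share of the inducible catalytic subunit in the summed FPKM of each inducible and constitutive pair, in percent, with 1 point for each library and a bar at the group mean (control blue, knockdown red). Psmb9 stays below 1% of its pair and Psmb10 lies at 14.1% to 20.2%.

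The activator subunits of the proteasome, Psme1 and Psme2, had 24.1 to 25.3 and 34.5 to 40.3 FPKM, and the trimming peptidase Erap1 had 5.28 to 6.05 FPKM. Of the Psme2 windows 12.1% also occurred in Psme2b, and of the Erap1 windows 9.43% in the overlapping gene Cast. Nlrc5, the class I transactivator, had 3.42, 3.53, 3.74 and 3.90 FPKM.

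Within class II, the transactivator and the surface chains were at or near 0. Ciita, the class II transactivator, had 0 counts in all 4 libraries, which allows up to 12 counts (0.159 to 0.197 CPM, for counting error only) in each. H2-Ab1, the beta chain of the I-A molecule, likewise had 0 counts in every library. Its partner H2-Aa had 0, 8, 0 and 0 counts, and H2-Eb1, the beta chain of I-E, 4, 0, 0 and 0. All of these values are at or under the 12 counts, so transcripts of the surface class II chains could not be detected at this depth in any of the 4 libraries, and no fold is given. Cd74, the invariant chain, was an exception at 35.4, 36.1, 31.4 and 25.2 FPKM. It stood at 14.3%, 14.4%, 11.5% and 9.88% of the summed class I heavy chains, in FPKM. Of the peptide exchange factor H2-DM, the beta chain gene H2-DMb1 had 2.08, 2.43, 0.981 and 1.17 FPKM and the alpha chain gene H2-DMa 0.0703, 0.340, 0.119 and 0.223 FPKM. H2-DMa rested on 21, 81, 35 and 57 counts, and its control libraries lay on both sides of its knockdown libraries. Of the H2-DMa windows 4.85% also occurred in Brd2, which overlaps H2-DMa on the opposite strand. Other class II genes were also scarce: of 5 listed, H2-Eb2 and H2-Ea-ps had 0 counts in all libraries, H2-Ob and H2-DMb2 at most 4 and 11 counts, and H2-Oa, a subunit of the H2-DM inhibitor, 130, 138, 160 and 55 counts.

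Of the members, 18 lie on chromosome 17 between 33915899 and 37274484 (GRCm38), a span of 3.36 Mb that is the mouse MHC region. The classical class I genes lie on either side of the class II genes, with H2-K1 at 33996017 to 34000347 (minus strand) and H2-D1 at 35262730 to 35267499 (plus strand). Between them lie the class II genes and a cluster of class I processing genes: H2-DMa at 34119541 to 34139101, H2-DMb1 at 34153072 to 34160230, Psmb9 at 34181987 to 34187764, Tap1 at 34187553 to 34197225, Psmb8 at 34197721 to 34201454, Tap2 at 34203527 to 34216321, H2-Ab1 at 34257689 to 34269419, H2-Aa at 34282744 to 34287823 and H2-Eb1 at 34305867 to 34316674. Levels in this stretch thus went from 15.0 FPKM for Psmb8 to 0 for H2-Ab1 in the first control library. Tap1 and Psmb9 run in opposite directions and their 5′ exons overlap. Psmb8 and Tap2 exons overlap Gm20496 on the opposite strand. In all 13 members have exons that overlap a gene on the opposite strand, and Tapbp and Cd74 overlap 1 on their own strand; without stated use of the strand in counting, reads there cannot be assigned with certainty. B2m lies at 122147686 to 122153083 on chromosome 2, Nlrc5 at 94434356 to 94527272 on chromosome 8 and Ciita at 10480059 to 10526426 on chromosome 16, all on the plus strand.

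Class I and class II promoters are known to share an arrangement of boxes, read by RFX, CREB and NF-Y proteins and by CIITA or NLRC5, and class I promoters also hold binding elements for NF-kB and interferon regulatory factors. The promoters of 2 abundant heavy chains, the light chain, 2 undetected class II chains and H2-DMb1 are printed to show how far these letters are shared between genes at opposite ends of the level range. Sequences are from RefSeq on GRCm38.p6, 200 bases before the annotated start and 20 from it on, 5′ to 3′ in the direction of the gene. They are H2-K1 (chr17:34000328-34000547, minus strand), H2-D1 (chr17:35262894-35263113, plus strand), B2m (chr2:122147487-122147706, plus strand), H2-Aa (chr17:34287804-34288023, minus strand), H2-Eb1 (chr17:34305667-34305886, plus strand) and H2-DMb1 (chr17:34152991-34153210, plus strand). Capitals mark matches, on either strand, to 4 motifs: GAAA and GAAA with any 2 bases between them (interferon-stimulated response element), GGGNNTTCC (NF-kB-like), CTGATTGG (Y box) and TGACG (CRE half-site, the core of the X2 box). Matches of different motifs or strands may overlap, as the 2 half-sites in H2-Aa do.
H2-K1: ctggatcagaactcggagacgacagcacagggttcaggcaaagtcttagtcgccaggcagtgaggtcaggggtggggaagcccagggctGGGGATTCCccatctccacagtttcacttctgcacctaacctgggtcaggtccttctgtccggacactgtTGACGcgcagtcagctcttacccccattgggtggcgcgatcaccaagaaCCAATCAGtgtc
H2-D1: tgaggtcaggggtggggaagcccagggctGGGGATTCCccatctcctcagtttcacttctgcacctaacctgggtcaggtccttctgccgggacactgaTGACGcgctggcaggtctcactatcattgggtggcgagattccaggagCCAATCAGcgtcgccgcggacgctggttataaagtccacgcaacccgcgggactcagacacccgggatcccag
B2m: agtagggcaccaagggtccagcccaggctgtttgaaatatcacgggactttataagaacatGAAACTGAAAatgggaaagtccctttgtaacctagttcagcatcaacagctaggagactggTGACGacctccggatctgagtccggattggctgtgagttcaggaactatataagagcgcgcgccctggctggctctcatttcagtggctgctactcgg
H2-Aa: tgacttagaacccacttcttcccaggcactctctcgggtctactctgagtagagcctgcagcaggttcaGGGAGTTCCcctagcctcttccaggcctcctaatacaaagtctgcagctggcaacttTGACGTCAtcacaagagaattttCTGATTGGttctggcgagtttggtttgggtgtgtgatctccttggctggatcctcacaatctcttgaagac
H2-Eb1: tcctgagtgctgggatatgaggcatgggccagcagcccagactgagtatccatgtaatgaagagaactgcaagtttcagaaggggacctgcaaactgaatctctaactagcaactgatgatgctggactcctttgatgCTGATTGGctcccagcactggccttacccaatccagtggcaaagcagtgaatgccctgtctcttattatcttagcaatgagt
H2-DMb1: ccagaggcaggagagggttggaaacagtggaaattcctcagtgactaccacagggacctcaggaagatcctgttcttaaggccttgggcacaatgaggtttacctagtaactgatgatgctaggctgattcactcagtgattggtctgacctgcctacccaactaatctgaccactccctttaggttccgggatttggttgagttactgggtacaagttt

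H2-K1 and H2-D1 hold the same 3 motifs, the NF-kB-like GGGGATTCC, the CRE half-site and the Y box on the reverse strand. B2m holds the interferon element GAAACTGAAA and the CRE half-site. H2-Aa, which had no more than 8 counts in any library, holds an NF-kB-like match, both half-sites of a full TGACGTCA and the Y box, and H2-Eb1 the Y box. H2-DMb1 holds no exact match to these letters in the printed stretch. Its gtgattgg differs from the Y box only in the first letter, and it shares aactgatgatgct with H2-Eb1. Near matches were not counted for any gene. Motifs were counted over 24 members with a window of 300 bases. Ciita, H2-Ab1, Nlrc5, Tap2 and Tapbpl had no window. Cd74 was left out, so the class II count lacks the most abundant class II member. The Y box occurred in 10 (8 of 20 of class I and 2 of 4 of class II), against 4.10% of all 32851 RefSeq windows of that length. The NF-kB-like motif occurred in 6, against 5.82% of all windows, the interferon element in 5, all class I, against 3.44%, and the CRE half-site in 13, against 20.8%. Paralogous promoters share descent. The windows of Tap1 and Psmb9 overlap, so the same Y box and the same CRE half-site were counted for both genes. The matches are thus not independent, and a match is a description of letters and not a bound site.

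For the comparison of knockdown with control libraries, genes were tested with edgeR's quasi-likelihood F test (two-sided, Benjamini-Hochberg adjustment over 15733 genes). All 23 class I members passed the filter on low counts, and 3 of 7 class II members (Cd74, H2-DMb1 and H2-DMa). Of these 26, 0 passed an adjusted p of 0.05, where 0.953% of all genes tested did. At an unadjusted p of 0.05, 4 passed, 2 higher (H2-K1 and Psmb8) and 2 lower (H2-DMb1 and Cd74) in knockdown libraries, against 14.2% of all genes. With DESeq2 1 member, H2-K1, passed the adjusted threshold, against 5.09% of all genes, and with limma-voom 0 did. For 15 of 26 members (57.7%) both knockdown values lay on 1 side of both control values, against 47.6% of all genes. The members' counts were thus near the background under each rule.

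**Figure D3:**
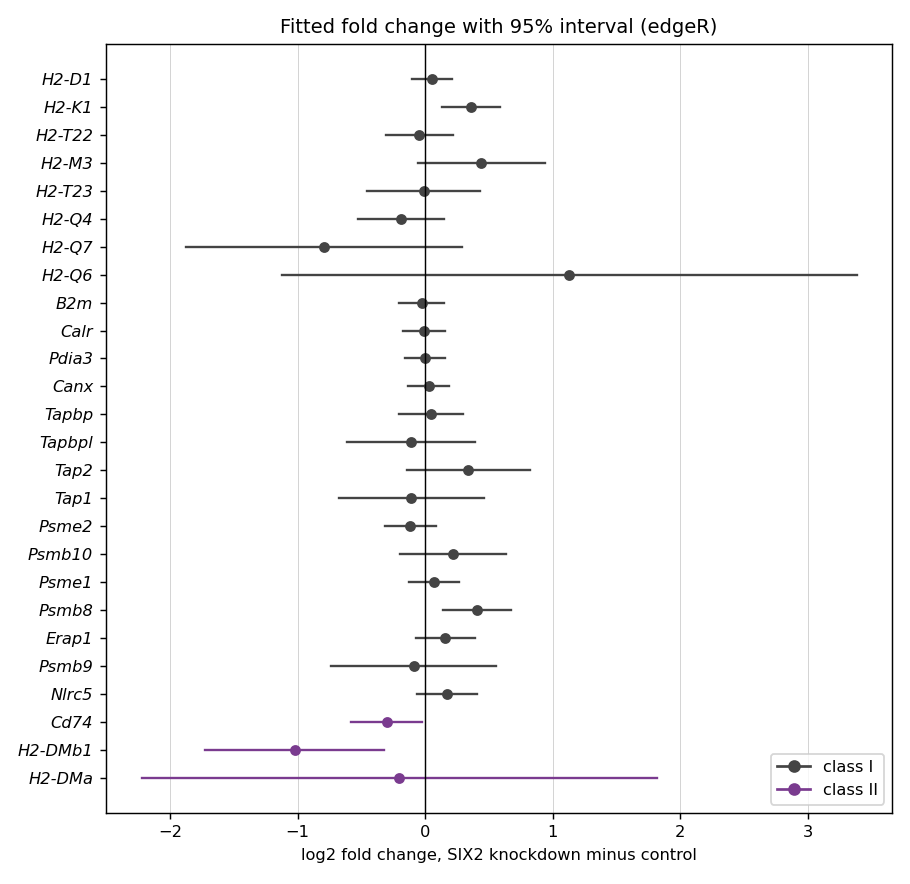
Log2 fold change of the 26 tested members, knockdown minus control, with the 95% interval of the edgeR fit, class I in grey and class II in purple. Intervals of H2-K1 and Psmb8 lie above 0 and those of Cd74 and H2-DMb1 below it before adjustment for the number of genes, and the other 22 include 0.

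Of the class I members, 12 had a fitted log2 fold change above 0 and 11 below, with a median of 0.03, beside -0.01 over all genes tested. The 3 tested class II members were all below 0, with a median of -0.30. The class I median thus lay 0.33 above the class II median on the log2 scale, a difference that was described and not tested. The class II median rests on Cd74, H2-DMb1 and the scarce H2-DMa, and it was -0.94 without control replicate 1 and -0.74 without knockdown replicate 2, libraries in which H2-DMa was lower or higher than its group partner by counts. Per length, the summed class I heavy chains were 1.06 times the control mean in knockdown libraries (250 ± 1.99 and 264 ± 13.4 FPKM, SD, n = 2 each). The summed class II members were 0.773 times (38.2 ± 0.877 and 29.6 ± 4.20 FPKM), and most of that sum was Cd74. The ratio of the class I heavy chain sum to the class II sum was 6.60, 6.46, 8.42 and 9.59 by library, higher in both knockdown libraries than in either control library.

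H2-K1 had 161, 156, 221 and 186 CPM. Both knockdown libraries lay above both control libraries, and the first lay further above them than the second. The fitted log2 fold change was 0.36 ± 0.10 (SE), or 1.28-fold with a 95% interval of 1.095 to 1.503 (unadjusted p = 0.00768, adjusted p = 0.175 by edgeR). DESeq2 gave an adjusted p of 0.0497, just under the threshold. Its classical partner H2-D1 had 493, 492, 521 and 501 CPM, and its fold was 1.04 with an interval of 0.933 to 1.16. The intervals of these 2 genes overlap, and the difference between the genes was not tested. The H2-K1 and H2-D1 promoters printed above carry the same 3 motifs, and a relation of motifs to these folds was not tested.

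Psmb8 had 56.1, 53.3, 79.7 and 65.5 CPM, again with both knockdown libraries above the controls and the first the higher. Its log2 fold change was 0.41 ± 0.11 (SE), 1.33-fold with an interval of 1.10 to 1.60 (adjusted p = 0.182 by edgeR, 0.0715 by DESeq2). Neighbouring genes of the same cluster are given next, and differences between genes were not tested. Tap2, next to Psmb8, had 7.36, 6.24, 7.71 and 9.48 CPM (1.26-fold, interval 0.903 to 1.77), also with both knockdown libraries above both controls. Tap1 had 5.78, 7.91, 6.94 and 5.75 CPM (0.928-fold, interval 0.627 to 1.37) and Psmb9 5.22, 6.16, 6.43 and 4.25 CPM (0.939-fold, interval 0.600 to 1.47), and in both genes the groups overlapped. None of these 3 passed the threshold, and the intervals of all 3 include the 1.33-fold of Psmb8.

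Of the 3 tested class II members, H2-DMb1 and Cd74 had lower values in both knockdown libraries than in either control library, neither passing the adjusted threshold, and H2-DMa overlapped between groups. H2-DMb1 had 3.88, 4.48, 1.86 and 2.24 CPM, from 296, 277, 138 and 142 counts, and the groups did not overlap. Its log2 fold change was -1.03 ± 0.30 (SE), 0.491-fold with a 95% interval of 0.302 to 0.799 (unadjusted p = 0.0108, adjusted p = 0.197 by edgeR and 0.0621 by DESeq2). Among the 1986 tested genes with a mean of 1 to 5 CPM, the median log2 fold change was -0.11 and 7.85% lay at or below that of H2-DMb1. Of its windows 4.71% also occurred in H2-DMb2. Cd74, which lies outside the MHC region at 60803848 to 60812646 on chromosome 18 (plus strand), had 65.8, 66.3, 59.3 and 47.8 CPM, lower in both knockdown libraries and lowest in the second. Its log2 fold change was -0.30 ± 0.12 (SE), 0.811-fold with an interval of 0.669 to 0.984 (unadjusted p = 0.0372, adjusted p = 0.312 by edgeR). It was -0.15 without knockdown replicate 2 and -0.47 without knockdown replicate 1. H2-DMa had 0.275, 1.31, 0.473 and 0.900 CPM, and its interval of 0.214 to 3.53 fold leaves its direction undetermined.

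**Figure D4:**
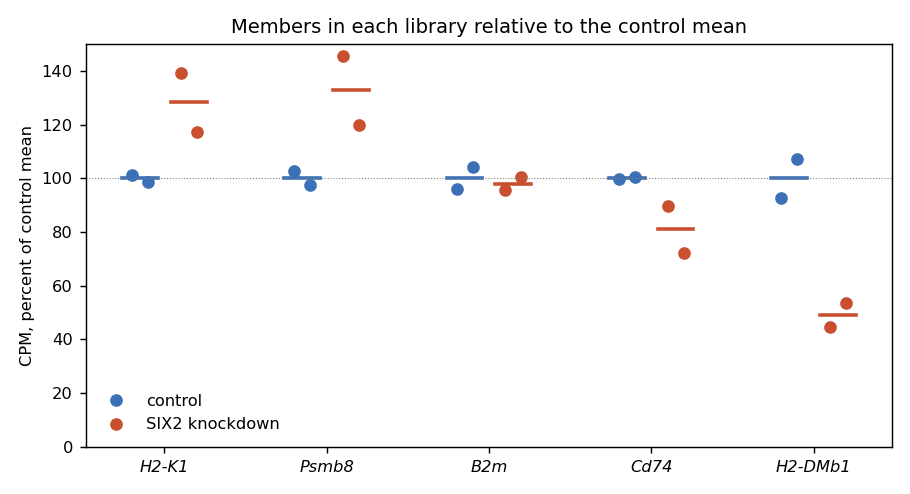
CPM of 5 members in each library as a percent of the control mean of that gene, with a bar at each group mean (control blue, knockdown red; the axis starts at 0). H2-K1 and Psmb8 points of the knockdown libraries lie above both controls, those of Cd74 and H2-DMb1 below both, and those of B2m overlap them.

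For the abundant members the intervals were narrow. B2m had 710, 770, 708 and 743 CPM, a fold of 0.981 with an interval of 0.869 to 1.11. Calr had 1278, 1342, 1272 and 1332 CPM (0.994-fold, interval 0.886 to 1.11), Pdia3 640, 627, 621 and 646 (0.999-fold, 0.897 to 1.11) and Canx 593, 588, 584 and 620 (1.02-fold, 0.912 to 1.14). In all 4 genes the groups overlapped. The regulator Nlrc5 had 32.2, 32.9, 35.8 and 37.5 CPM. Both of its knockdown libraries were the higher, at 1.13-fold with an interval of 0.955 to 1.33 (adjusted p = 0.506 by edgeR).

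None of the other class I members passed the adjusted threshold. Erap1 had 46.6, 42.1, 49.3 and 49.7 CPM (1.12-fold, interval 0.953 to 1.31) and Psme1 58.9, 60.8, 62.4 and 63.0 (1.05-fold, 0.917 to 1.20), without overlap between groups. Psme2 had 78.6, 73.8, 71.9 and 68.7 CPM (0.923-fold, 0.803 to 1.06), and Psmb10 48.8, 40.2, 59.3 and 44.4 CPM (1.17-fold, 0.873 to 1.55). Psmb10 followed no group order, with the first library of each group the higher. Tapbp (1.03-fold, 0.866 to 1.22) and Tapbpl (0.926-fold, 0.653 to 1.31) did not pass either. Of the non-classical heavy chains, H2-M3 had 6.98, 9.65, 10.4 and 12.2 CPM, a fold of 1.36 with an interval of 0.961 to 1.92 (unadjusted p = 0.0742 by edgeR). H2-T22 had a fold of 0.968 (0.807 to 1.16), H2-T23 0.992 (0.730 to 1.35) and H2-Q4 0.876 (0.694 to 1.11). For H2-Q7 (0.576-fold) and H2-Q6 (2.19-fold) the intervals were wide, at 0.272 to 1.22 and 0.459 to 10.4, and these 2 genes share sequence windows with each other.

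The rest of the pathway was read from 6 further lists. None of their genes passed an adjusted p of 0.05 by edgeR: 0 of 10 tested other class I and class I-like chains, 0 of 1 other class II gene, 0 of 16 constitutive proteasome and cytosolic peptidase genes, 0 of 20 genes of MHC transcription, 0 of 12 of endosomal class II processing and 0 of 13 of endoplasmic reticulum quality control and cross-presentation. Their unadjusted counts at p under 0.05 were 0 higher and 1 lower, 0 and 0, 1 and 1, 2 and 2, 2 and 0, and 1 and 4 in that order, against 14.2% of all genes in either direction. The last list, with 5 of 13, stood furthest above that share. The MHC transcription and endosomal lists also lay above it and the others below, and no test of any list was made. DESeq2, which called 5.09% of all genes, called 1 gene in the peptidase list (Lnpep) and 1 in the quality control list (Pdia4) with limma-voom calling 0. The medians of log2 fold changes ran from -0.37, for the 1 other class II gene, to 0.02.

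The 2 most abundant tested genes of each list follow. Hfe, a class I-like chain that regulates iron uptake, had 14.84, 17.38, 10.13 and 12.40 CPM (log2 fold change -0.52 ± 0.17 (SE), adjusted p = 0.240 by edgeR), with both knockdown libraries the lower. Fcgrt, the chain of the neonatal Fc receptor, had 5.95, 4.85, 5.90 and 5.40 CPM. Psmb7 had 457, 493, 469 and 536 CPM and Psma7, another subunit of the proteasome core, 459, 474, 469 and 449. Jak1, a kinase of interferon receptors, had 182, 165, 176 and 182 CPM. Hdac2, a histone deacetylase, had 158, 154, 164 and 171 CPM, slightly higher in both knockdown libraries (adjusted p = 0.603 by edgeR). The endosomal cathepsins Ctsb and Ctsd had 1686 to 1730 and 1342 to 1557 CPM, and only Ctsd had both knockdown values above both control values. The chaperones Hspa5 and Hsp90b1 of the endoplasmic reticulum had 871 to 957 and 807 to 859 CPM. In the quality control list 11 of 13 genes had a fitted log2 fold change below 0, with a median of -0.07, beside -0.01 over all genes.

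Of the genes with an unadjusted p under 0.05, chosen here after their values were seen, Irf1, an activator of class I genes, had 23.7, 26.3, 18.9 and 19.2 CPM (adjusted p = 0.227 by edgeR), with both knockdown libraries the lower. Its log2 fold change was -0.39 ± 0.12 (SE), and that of Irf2, a related factor, was -0.30 ± 0.12. In the same list the coactivators Crebbp and Ep300 had log2 fold changes of 0.31 ± 0.10 and 0.24 ± 0.09, so the 4 regulators did not share a direction (adjusted p = 0.337, 0.251 and 0.273 by edgeR for Irf2, Crebbp and Ep300). Lnpep, a peptidase of cross-presentation, had 86.1, 83.2, 106 and 116 CPM (adjusted p = 0.102 by edgeR, 0.00311 by DESeq2). Ide, of the same list as Lnpep, was lower, with a log2 fold change of -0.20 (adjusted p = 0.2685 by edgeR). Pdia4, an endoplasmic reticulum disulfide isomerase, had 173, 172, 150 and 144 CPM (adjusted p = 0.215 by edgeR, 0.0426 by DESeq2). Of its list, Pdia6, Sec61a1 and Sec61b were also lower at this unadjusted p. Uggt1 was higher, with a log2 fold change of 0.22 (adjusted p = 0.267 by edgeR). Marchf8, a ubiquitin ligase that removes class II and other proteins from the surface, had 45.0, 50.0, 56.8 and 55.5 CPM (adjusted p = 0.311 by edgeR).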

How the data were processed

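RNA sequencing of 4 LPS-treated BV-2 libraries was analysed, 2 of each group, grouped by the genotype label. Per the labels' protocols, oligo-dT selected RNA was made into dUTP-marked libraries and sequenced as paired reads of 150 bases. Used were the authors' estimated counts, deposited per gene as whole numbers without normalisation (rounding changed nothing), and the deposited FPKM, named so per the file headers. Bowtie 0.12.2 and build mm8 appear in the tool and build lists, per the submitters' processing notes; the program that counted: not given in the sources used here. Coordinates of 86.4% of genes, and of 24 of the 30 members, equalled those of GENCODE M21 on GRCm38, and that build is used. Between 42.1% and 47.2% of count values from 1 to 20 were multiples of 4, so the floor was taken as 3 fragments at an assumed 4 counts each, or 12 counts. Another 12 columns that match no labelled sample were not used.

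All genes were fitted together by robust quasi-likelihood in edgeR 4.0.16 under R 4.3.3, after filterByExpr and TMM scaling and with no covariate, SE and 95% intervals coming from that fit. DESeq2 1.42.0, limma-voom and limma on log2(FPKM + 1) and log2(FPKM + 0.1) (limma 3.58.1), other scalings and filters, counts divided by 4, a replicate block and leaving out each library were alternatives. The script was tested on simulated data. The members and lists were chosen with earlier results of these data known. Every member was named; of other lists, called genes or the 2 most abundant, plus those the text says were chosen later. Windows were read from GENCODE M21 transcripts, and promoters from the RefSeq table, whose most upstream start per gene was used.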

Additional observations from a re-analysis of the deposited data

How the results depend on the processing

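No member was called in the 4 fits that left out 1 library (0 to 0 calls), and 1, H2-K1, was called with DESeq2 in place of 0; DESeq2 also gave 1 call in the peptidase list and 1 in the quality control list in place of 0. H2-K1, Psmb8, H2-DMb1 and Cd74 kept their sign in all 15 alternative fits, with log2 fold changes of 0.23 to 0.48, 0.26 to 0.54, -1.17 to -0.65 and -0.47 to -0.15 and lowest adjusted p of 0.0497, 0.0715, 0.0621 and 0.209. Of 26 tested members, 15 kept their sign and 11 did not. With 1 library left out, those 11 ranged from -0.0888 to 0.0319 (B2m), -0.0461 to 0.0262 (Calr), -0.0165 to 0.0672 (Canx), -0.94 to 1.31 (H2-DMa), -0.12 to 0.0201 (H2-T22), -0.29 to 0.22 (H2-T23), -0.0301 to 0.0251 (Pdia3), -0.0042 to 0.41 (Psmb10), -0.42 to 0.18 (Psmb9), -0.32 to 0.13 (Tap1) and -0.0258 to 0.10 (Tapbp). Canx was -0.0061 with library totals alone, -0.0080 with limma on log2(FPKM + 1) and -0.0080 with 0.1 added; Pdia3 was 0.0027 without a filter, and H2-DMa was 0.20 with limma-voom. The cause was not tested.

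The class I median was -0.0061 with library totals alone, -0.0036 with a mean of at least 1 CPM required, -0.0080 with either FPKM fit, 0.0481 without Calr, Canx and Pdia3, and 0.0121 to 0.0616 with 1 library left out. The class II median was -1.02 with no filter and -0.68 with at least 1 CPM, settings that change which class II genes are tested, and -0.94 to -0.30 with 1 library left out; the difference of the medians was then 1.05, 0.68 and 0.35 to 0.95. The log2 ratio of summed FPKM was 0.08 for class I heavy chains (0.0305 to 0.13 with 1 library left out) and -0.37 for class II members (-0.52 to -0.23). With 1 library left out a group holds 1 library, assumed to vary like the other group.

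Over all genes, 150 were called, against 801 with DESeq2, 297 without a filter, 236 with counts divided by 4, 65 with limma-voom, 7 without the robust option, 3 in either FPKM fit and 6 to 17 with 1 library left out. With the replicate number as a block, 0 genes and 0 members were called, the class medians were 0.03 and -0.31, their difference 0.34, and H2-DMa was 0.10. Deviations of same-numbered libraries had a correlation of 0.03 over 11968 genes. With so few libraries this cannot show whether same-numbered libraries shared a culture or batch, and the labels do not say. Depth limits H2-Q6, H2-DMa, Ciita and the class II surface chains. Similar copies limit H2-Q6 and H2-Q7, and overlapping genes limit H2-T22, H2-DMa and other members with shared windows.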
